A study of Mus musculus with 4 samples.

Results

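Microglia are the macrophages that live in the brain, and their respiratory chain genes were followed after irradiation in mice, in 4 droplet single-cell RNA libraries. Members were taken by symbol, as all genes of the files whose names start with mt-, Nduf, Uqcr or Atp5, or with Cox4 to Cox8. The rule gave 101 of 27998 genes, of which 13 are coded by mitochondrial DNA and 88 by nuclear DNA. Nuclear members comprised 36 subunits of complex I, 8 of complex III, 19 of complex IV, 15 of complex V and 10 assembly or accessory factors. Ndufa4 and its relative Ndufa4l2 are counted under complex IV, where the Ndufa4 protein is now placed. The groups were irradiated and sham microglia at 6 h, and irradiated and sham microglia at 1 week. All mice were C57BL/6 without a further allele named in the labels. At postnatal day 21 the whole brain was given 8 Gy once in irradiated mice and no dose in sham mice. Cells of 4 mice were pooled into 1 library per group, so no difference below has a replicate check and no test between groups was possible. Mice of the 1 week groups were also older at collection than those of the 6 h groups. Whether the cells came from whole brain, as labelled, or from hippocampus, as the study design has it, is not settled here.

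The respiratory chain sits in the inner mitochondrial membrane. Complex I takes electrons from NADH, complex III passes them from ubiquinol to cytochrome c, complex IV hands them to oxygen, and the proton gradient so built drives ATP synthesis by complex V. Its subunits are coded by both genomes: the mitochondrial transcripts are cut from long polycistronic precursors inside the organelle, whereas nuclear-coded subunits are transcribed one by one, translated in the cytosol and imported. Microglia use oxidative phosphorylation at rest and can shift towards glycolysis on inflammatory activation.

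Promoter sequences of the members that carry the main contrasts are shown because Cox6b2 and Cox6b1 code for alternative isoforms of the same complex IV subunit that differed in response, and because Ndufb6 stood apart from all other complex I subunits. They are RefSeq sequences of the mouse build GRCm38.p6, from 250 bases before to 50 bases after the transcription start, written 5′ to 3′ on the gene's strand. Capitals mark matches, on either strand, to the motifs listed after them.
Cox6b2, chr7:4753045-4753344, minus strand: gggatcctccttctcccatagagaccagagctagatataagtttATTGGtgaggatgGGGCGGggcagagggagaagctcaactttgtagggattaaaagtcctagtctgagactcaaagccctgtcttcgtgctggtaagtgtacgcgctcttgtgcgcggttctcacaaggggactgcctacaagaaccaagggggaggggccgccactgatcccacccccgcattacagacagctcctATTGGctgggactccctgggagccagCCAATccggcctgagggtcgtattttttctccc
Cox6b1, chr7:30626065-30626364, minus strand: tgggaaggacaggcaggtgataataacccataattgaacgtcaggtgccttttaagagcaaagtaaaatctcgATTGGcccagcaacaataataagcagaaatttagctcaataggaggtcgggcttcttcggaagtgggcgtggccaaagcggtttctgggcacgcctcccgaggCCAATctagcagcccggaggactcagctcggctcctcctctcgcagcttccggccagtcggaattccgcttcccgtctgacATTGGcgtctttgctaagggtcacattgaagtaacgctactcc
Ndufb6, chr4:40279372-40279671, minus strand: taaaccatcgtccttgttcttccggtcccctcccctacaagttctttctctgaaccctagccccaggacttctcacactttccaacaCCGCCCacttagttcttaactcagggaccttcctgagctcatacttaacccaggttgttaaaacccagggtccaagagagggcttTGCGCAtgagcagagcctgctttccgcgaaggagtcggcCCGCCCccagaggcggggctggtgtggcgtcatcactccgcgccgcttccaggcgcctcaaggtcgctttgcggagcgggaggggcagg
The last sequence is the stretch that mt-Atp8 and mt-Atp6 share on the mitochondrial genome, where a read cannot be given to one of the genes. Capitals mark the start codon of mt-Atp6.
mt-Atp8 and mt-Atp6, chrM:7927-7969, plus strand: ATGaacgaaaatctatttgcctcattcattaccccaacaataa

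A RefSeq promoter was matched for 70 of the 88 nuclear members. The core motif of NRF1, a nuclear activator of respiratory genes, searched as GCGCA followed directly by its reverse complement, was in 7 of 70 member promoters (10.0%) and in 1.07% of all 27025 genes with windows of the same length. A gene counted where any of its windows held the motif. The shorter NRF1 motif TGCGCA, which can overlap the core, was in 16 (22.9%), against 8.79% of all genes, and Ndufb6 holds 1 copy. The YY1 motif AAGATGGC was in 9 member promoters (12.9%), against 3.19% of all genes. The ETS motif of GABPA, CCGGAAGT, was in 5 (7.14%), against 4.31%. More general promoter letters differed less. The GC box GGGCGG was in 30 member promoters (42.9%), against 38.2% of all genes, and CCAAT was also in 30 (42.9%), against 41.1%. The half-site of p53, which is activated by DNA damage, matched in 4 member promoters (5.71%), against 9.55% of all genes. None of the promoters printed here held the NRF1 core, the GABPA motif, the YY1 motif or the p53 half-site. Both Cox6b promoters held 3 CCAAT matches, and only that of Cox6b2 held a GC box, with 1 match. A match is a description of letters, and no binding was measured.

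At 6 h the irradiated library held 2023 cell barcodes and 7399019 unique molecular identifiers (UMIs, each counting 1 captured transcript) and the sham library 2670 barcodes and 9760928 UMIs. At 1 week the irradiated library held 2170 barcodes and 7733309 UMIs and the sham library 1623 barcodes and 5706955 UMIs. Median depth was between 3422.5 and 3570 UMIs per barcode. The p53 target Cdkn1a was at 2938 CPM (a gene's UMIs scaled to a library total of 1e+06) and 2207 CPM in the irradiated libraries at 6 h and 1 week, against 52.1 and 56.9 CPM in their sham libraries. All 9 microglia markers were present in every library. At 6 h they summed to 49609 CPM in irradiated and 59012 CPM in sham. At 1 week the sums were 58039 CPM in irradiated and 55326 CPM in sham. Markers of other cells were lower but uneven. The 5 astrocyte markers summed to 252 CPM in irradiated and 148 CPM in sham at 6 h, and to 180 CPM in irradiated and 142 CPM in sham at 1 week. The 8 markers of dividing cells summed to 21.9 CPM in irradiated and 68.4 CPM in sham at 6 h, and to 137 CPM in irradiated and 23.3 CPM in sham at 1 week. The 4 monocyte markers summed to 28.5 CPM in irradiated and 30.6 CPM in sham at 6 h, and to 12.2 CPM in irradiated and 8.41 CPM in sham at 1 week. The 4 border macrophage markers summed to 35.7 CPM in irradiated and 35.1 CPM in sham at 6 h, and to 23.4 CPM in irradiated and 13.7 CPM in sham at 1 week, so both lists were lower at 1 week. The 4 neuron markers summed to 4.73 CPM in irradiated and 2.66 CPM in sham at 6 h, and to 5.43 CPM in irradiated and 0.526 CPM in sham at 1 week. The 3 globin markers of red cells were at 762 CPM in sham at 6 h and at most 0.135 CPM elsewhere. The 2 oligodendrocyte precursor markers were at 3.78 CPM in irradiated at 6 h and at most 0.102 CPM elsewhere, while all 4 neutrophil markers, Ly6c2 of monocytes and Ccdc153 of ependymal cells had 0 UMIs. The part of these marker differences in the results below was not tested, and the summed values are also given for barcodes selected by microglia markers. Of all barcodes, 41 sequences occurred in more than 1 library. In UMIs summed over a library, a different mix of cells and less RNA per cell cannot be told apart.

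Mitochondrially coded transcripts made up 1.26% of UMIs in irradiated and 1.19% in sham microglia at 6 h, and 1.30% in irradiated and 1.42% in sham microglia at 1 week. The irradiated library was therefore the higher one at 6 h and the lower one at 1 week. The log2 fold of irradiated over sham was 0.077 at 6 h, with an exact 95% counting interval of 0.065 to 0.090, and -0.13 (-0.15 to -0.12) at 1 week. All intervals cover counting error only and say nothing of the spread between mice or libraries. Sham at 1 week stood 0.25 above sham at 6 h (0.24 to 0.26), a larger difference than either irradiated library showed from its own sham. Against the sham library of the other time, both signs turned, to -0.17 for irradiated at 6 h and 0.12 for irradiated at 1 week. The sham libraries differ in the age of the mice as well as in library, and these cannot be told apart. The 6 h value was 0.036 in barcodes selected by microglia markers and 0.040 in cells thinned to 2000 UMIs each, less than the value over all barcodes by more than 1.5 times.

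Nuclear-coded members made up 1.30% of UMIs in irradiated and 1.31% in sham at 6 h, and 1.26% in irradiated and 1.22% in sham at 1 week. Their log2 fold at 6 h was -0.010 (-0.023 to 0.0016), and it was 0.017 with TMM factors and 0.042 with DESeq2 size factors, so its sign rested on the scaling. At 1 week it was 0.051 (0.037 to 0.065) against the sham of that time and -0.049 against sham at 6 h. With the same scaling, the median over all genes counted as measured below was -0.061 at 6 h and 0.036 at 1 week. The median nuclear member was at -0.046 at 6 h and 0.054 at 1 week. A sum of this size is thus close to the median gene, even where its counting interval excludes no change. In the nuclear sum, sham at 1 week was at a log2 fold of -0.10 against sham at 6 h (-0.11 to -0.087). The sham libraries thus differed in opposite directions for the mitochondrial and the nuclear genes. Mitochondrial UMIs per nuclear member UMI were 0.971 in irradiated and 0.914 in sham at 6 h, and 1.03 in irradiated and 1.17 in sham at 1 week.

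**Figure D1:**
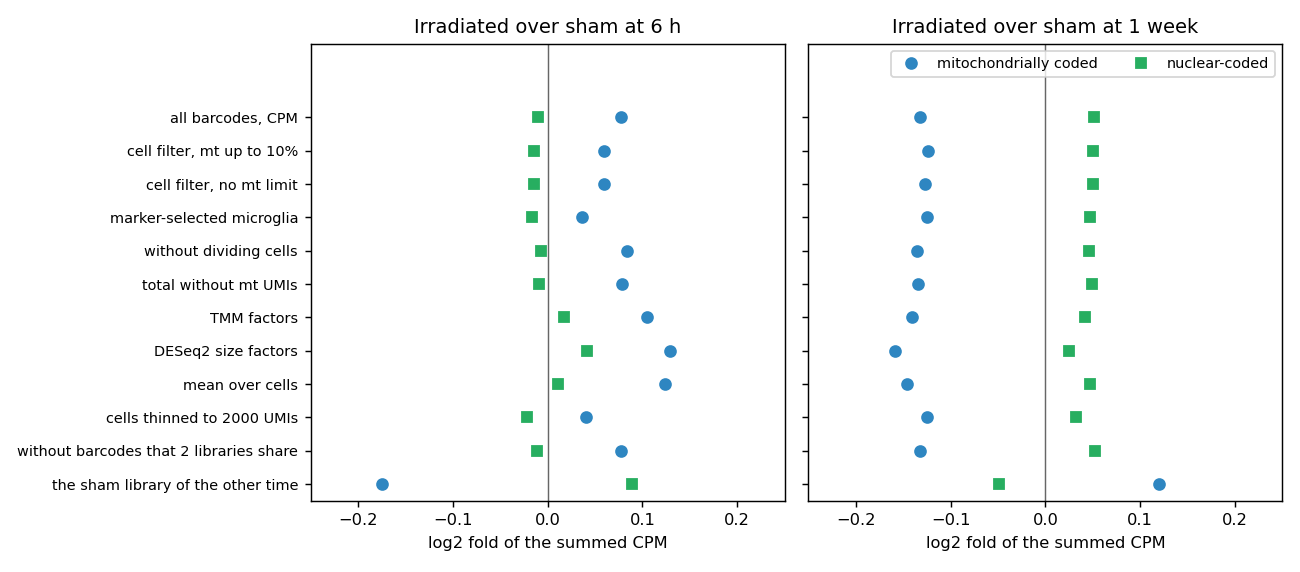
Log2 fold of the summed CPM of irradiated over sham microglia (x axis) at 6 h and 1 week, for mitochondrially coded (circles) and nuclear-coded (squares) members, under each way of selecting cells, scaling and choosing the sham library (y axis). With the sham library of the same time, mitochondrial values run from 0.036 to 0.13 at 6 h and lie below 0 at 1 week, and both turn sign with the other sham library.

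Single members were called by fold alone, at 1.2-fold and at 1.5-fold, where both libraries together held at least 50 UMIs. At 6 h this measured all 13 mitochondrial and 82 nuclear members. Just inside the minimum were mt-Nd6 with 74 UMIs and Cox6a2 and Ndufaf5 with 97 each, and just outside were Cox7a1 with 13 and Ndufa4l2 with 11. At 1 week, 12 mitochondrial and 81 nuclear members were measured, with Cox6a2 at 61 UMIs just inside, and mt-Nd6 at 47 and Cox6b2 at 36 just outside.

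Among nuclear members at 6 h, 6 of 82 were at least 1.2-fold higher and 8 were at least 1.2-fold lower in irradiated microglia. Over all 9948 genes measured the same way, 20.1% were that much higher and 28.0% that much lower. At 1.5-fold, 2 members were higher, Cox6b2 and Ndufb6, and 0 were lower, where 9.02% and 9.27% of all genes passed. The members' share was therefore below the background in both directions. At 1 week, 3 of 81 nuclear members were at least 1.2-fold higher and 1 was lower, against 16.4% and 14.0% of 9526 genes, and 0 passed 1.5-fold, against 3.96% and 3.10%. Between the sham libraries, 1 of 81 was at least 1.2-fold higher at 1 week and 6 were lower, against 12.7% and 19.4% of 9741 genes, and 0 passed 1.5-fold, against 2.98% and 4.85%.

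Low counts scatter more, so the same was counted among abundant genes. Among genes with at least 1000 UMIs over both libraries, the 69 nuclear members had a median absolute log2 fold of 0.10 at 6 h, against 0.20 over all 2609 genes, and 90% of them lay within 0.25, against 0.65. By calls, 4 of these passed 1.2-fold upwards and 3 downwards, where 17.5% and 22.0% of the abundant genes passed. At 1 week the median was 0.072 over 67 members and 0.12 over 2047 genes, with 2 members higher and 0 lower, against 8.84% and 7.87%. Between the sham libraries it was 0.10 over 68 members and 0.13 over 2341 genes, with 0 higher and 5 lower, against 8.59% and 9.87%. These counts and medians are descriptions and carry no test.

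**Figure D2:**
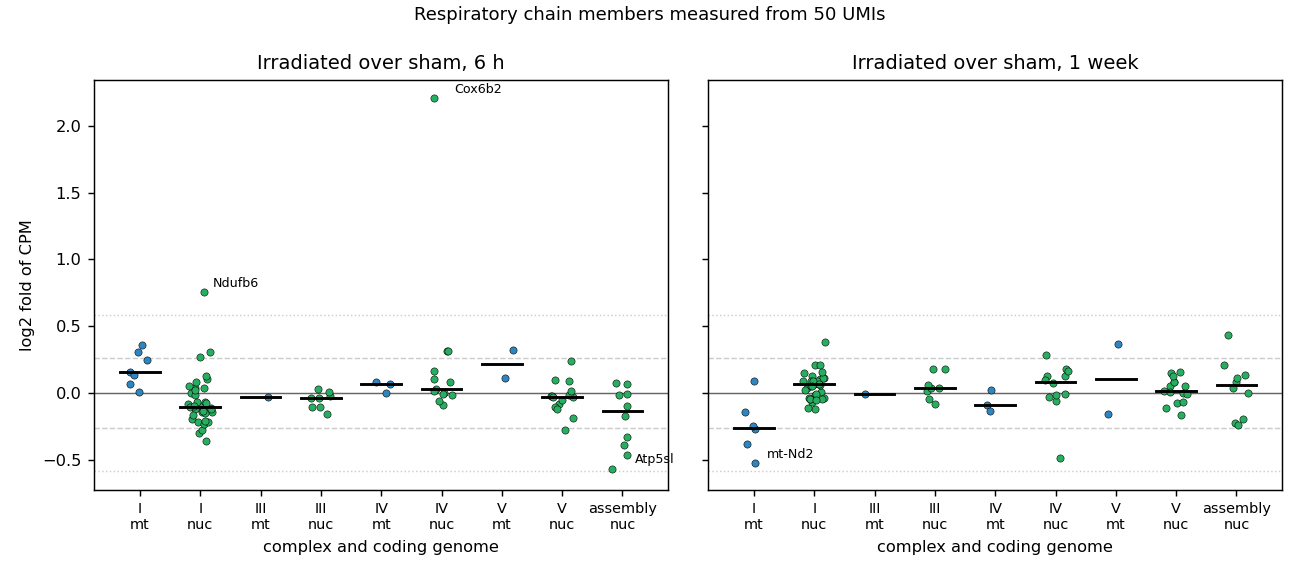
Log2 fold of CPM (y axis) of irradiated over sham microglia for each member measured from 50 UMIs, by complex and coding genome (x axis; mt, mitochondrial; nuc, nuclear). Bars are medians, dashed lines mark 1.2-fold and dotted lines 1.5-fold; at 6 h only Cox6b2 and Ndufb6 lie beyond the dotted lines, and at 1 week none does.

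By complex, the mitochondrial differences from the sham library of the same time were largest in complex I. Its 7 mitochondrial genes, which code for the proton-pumping membrane arm, summed to a log2 fold of 0.14 (0.12 to 0.17) at 6 h and -0.29 (-0.31 to -0.26) at 1 week. Sham at 1 week was 0.51 (0.48 to 0.53) above sham at 6 h for the same genes, so that against the sham of the other time the sums were -0.36 for irradiated at 6 h and 0.22 for irradiated at 1 week. The 3 complex IV genes were at 0.046 at 6 h and -0.049 at 1 week, with 0.16 between the sham libraries. Their 6 h value was 0.030 in barcodes from 1000 UMIs and 500 genes, 0.013 after thinning and -6.46e-06 in marker-selected microglia, and 0.098 with DESeq2 scaling. The pair of complex V genes was at 0.12 at 6 h and -0.15 at 1 week, with 0.20 between the sham libraries, and its 6 h value was 0.064 after thinning. mt-Cytb, the only mitochondrial gene of complex III, was at -0.031 (-0.066 to 0.0044) at 6 h, where DESeq2 scaling gave 0.022 and marker-selected microglia -0.062, and -0.0063 (-0.045 to 0.032) at 1 week.

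Of the 13 mitochondrial genes at 6 h, 3 were at least 1.2-fold higher, mt-Nd4l, mt-Atp8 and mt-Nd5, and 0 were lower, with 20.1% and 28.0% of all genes passing as above, so the share that was higher was near the background. At 1 week, mt-Atp8 was that much higher and mt-Nd2, mt-Nd3 and mt-Nd1 were that much lower, 1 and 3 of 12 genes, against 16.4% and 14.0% of all genes. Among abundant genes, 0 of 10 mitochondrial genes were higher and 3 were lower at 1 week, against 8.84% and 7.87%, and 3 of 12 were higher and 0 lower at 6 h, against 17.5% and 22.0%. None passed 1.5-fold in either comparison. Between the sham libraries, 5 of 13 were at least 1.2-fold higher at 1 week and 2 were lower, against 12.7% and 19.4% of all genes, so the share that was lower was near the background. At 1.5-fold, mt-Nd2 and mt-Nd3 were higher and mt-Atp8 was lower, against 2.98% and 4.85%. By this measure the sham libraries were further apart in mitochondrial genes than either irradiated library was from its own sham.

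mt-Nd2, a core subunit of the complex I membrane arm, was at 594 CPM in irradiated and 542 CPM in sham at 6 h, and at 645 CPM in irradiated and 930 CPM in sham at 1 week. The sham library at 1 week was the highest of all, and the other 3 lay between 542 and 645 CPM. Its log2 fold was 0.13 (0.074 to 0.19) at 6 h and -0.53 (-0.58 to -0.47) at 1 week, and irradiated at 1 week was 0.25 above sham at 6 h. mt-Nd3, another core subunit, which forms a loop near the ubiquinone site, was at 195 CPM in irradiated and 164 CPM in sham at 6 h, and at 215 CPM in irradiated and 279 CPM in sham at 1 week. It followed the same order, with 0.25 (0.14 to 0.35) at 6 h and -0.38 (-0.48 to -0.28) at 1 week, and 0.39 for irradiated at 1 week over sham at 6 h. mt-Nd1, which holds part of the ubiquinone-binding pocket, was at 1564 CPM in irradiated and 1400 CPM in sham at 6 h, and at 1652 CPM in irradiated and 1996 CPM in sham at 1 week, again with the last library highest.

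Other complex I genes differed less or rested on fewer UMIs. mt-Nd4, another membrane-arm subunit, was at 0.066 (0.020 to 0.11) at 6 h and -0.14 (-0.19 to -0.092) at 1 week. mt-Nd5 was at 107 CPM in irradiated and 86.7 CPM in sham at 6 h, a log2 fold of 0.30 (0.16 to 0.45), and at 77.6 CPM in irradiated and 91.99 CPM in sham at 1 week, a log2 fold of -0.25 (-0.42 to -0.074). mt-Nd4l was at 98.5 CPM in irradiated and 76.6 CPM in sham at 6 h, a log2 fold of 0.36 (0.21 to 0.51), and at 65.3 CPM in irradiated and 61.5 CPM in sham at 1 week. Both 6 h libraries were thus above both 1 week libraries in mt-Nd4l. mt-Nd6, the only member read from the other strand of mitochondrial DNA, had 32 UMIs in irradiated and 42 in sham at 6 h, and 21 in irradiated and 26 in sham at 1 week, too few to order the libraries.

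mt-Atp8, which codes for a small membrane subunit of complex V, showed the opposite order over time. It was at 115 CPM in irradiated and 92.5 CPM in sham at 6 h, and at 61.8 CPM in irradiated and 48.0 CPM in sham at 1 week. Each irradiated library was above its own sham, with log2 folds of 0.32 (0.18 to 0.46) at 6 h and 0.36 (0.15 to 0.58) at 1 week, while sham at 1 week was at -0.95 (-1.15 to -0.75) against sham at 6 h. Irradiated at 1 week was therefore at -0.58 against sham at 6 h. mt-Atp6, its overlapping neighbour and the proton channel subunit, was at 2333 CPM in irradiated and 2157 CPM in sham at 6 h, and at 2269 CPM in irradiated and 2530 CPM in sham at 1 week. The pair shares the 43 bases printed above, and mt-Nd4l and mt-Nd4 share 7 bases. How reads in such stretches were counted is not given in the sources used here. Whether the UMIs given to both genes of such a pair came from separate messages was not tested.

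The complex IV genes code for the catalytic core. mt-Co1 was at 1653 CPM in irradiated and 1656 CPM in sham at 6 h, and at 1596 CPM in irradiated and 1700 CPM in sham at 1 week. Its log2 folds were -0.0030 (-0.037 to 0.031) at 6 h and -0.091 (-0.13 to -0.052) at 1 week. mt-Co2 was at 1148 CPM in irradiated and 1084 CPM in sham at 6 h, and at 1199 CPM in irradiated and 1319 CPM in sham at 1 week, a log2 fold of 0.083 at 6 h and -0.14 at 1 week. It followed the order of mt-Nd2 and mt-Nd1, whereas irradiated at 1 week was the lowest library in mt-Co1. mt-Co3 was at 2336 CPM in irradiated and 2236 CPM in sham at 6 h, and at 2562 CPM in irradiated and 2524 CPM in sham at 1 week, a log2 fold of 0.063 at 6 h and 0.021 (-0.0095 to 0.053) at 1 week.

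**Figure D3:**
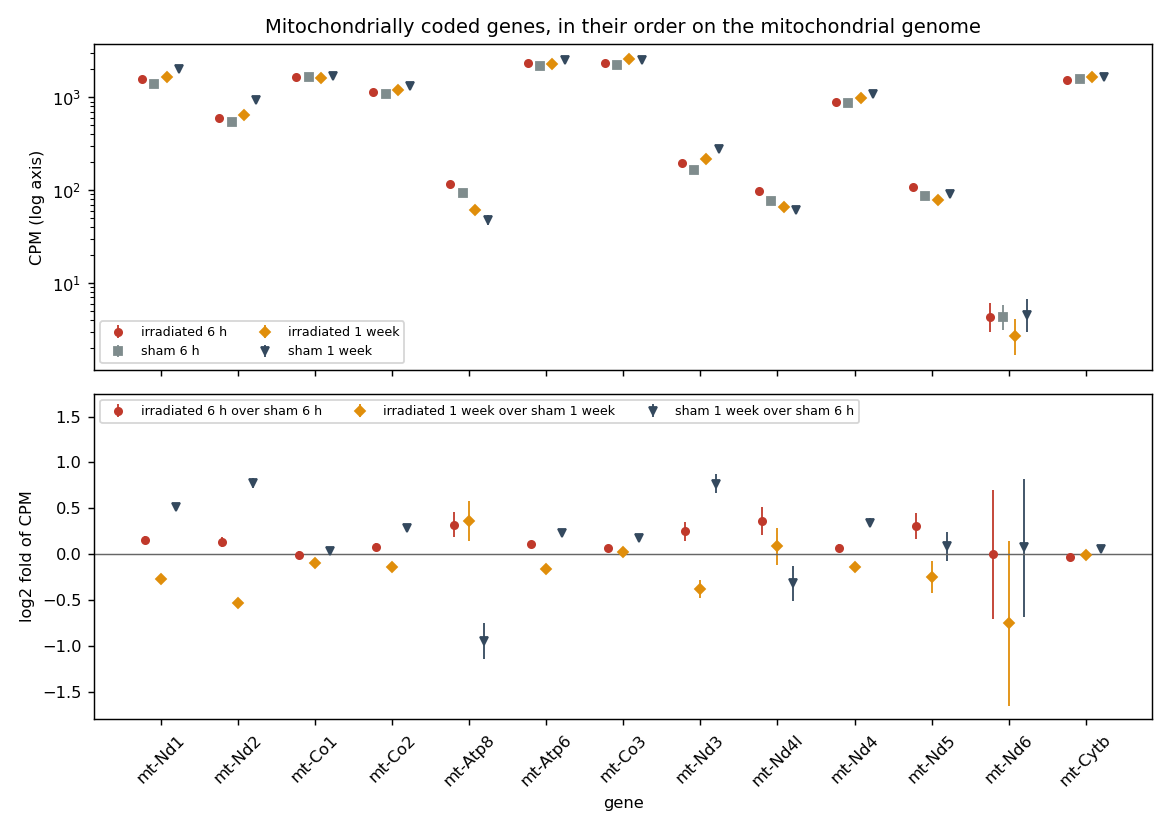
Upper plot, CPM on a log axis of the 13 mitochondrially coded genes (x axis, in their order on the mitochondrial genome) in the 4 libraries. Lower plot, log2 fold of CPM for irradiated over sham at each time and for the sham library of 1 week over that of 6 h; bars are exact 95% counting intervals, and the sham-over-sham values of mt-Nd2, mt-Nd3 and mt-Atp8 lie farthest from 0, while the intervals of mt-Nd6 are wide.

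Nuclear complex I subunits summed to a log2 fold of -0.048 (-0.069 to -0.028) at 6 h, where DESeq2 scaling gave 0.0038, and 0.051 (0.027 to 0.075) at 1 week. Against the sham of the other time both signs turned, to 0.064 for irradiated at 6 h and -0.062 for irradiated at 1 week. At 6 h the 7 core subunits of the peripheral arm, which carry the flavin and the iron-sulphur clusters, were at -0.19 (-0.24 to -0.13), and the 29 supernumerary subunits were at -0.025 (-0.047 to -0.0024). By the median gene they were closer, at -0.21 for core subunits, with 6 of 7 below 0, and -0.10 for supernumerary subunits, with 20 of 29 below 0. Over all 9948 genes measured at 6 h, 5683 were below 0 and the median was -0.061. The median over all genes measured at 1 week was 0.036. At 1 week the sums of core and supernumerary subunits were at 0.056 (-0.0054 to 0.12) and 0.050 (0.024 to 0.076). For irradiated at 6 h against sham at 1 week, core subunits were at -0.082 and supernumerary subunits at 0.089. For irradiated at 1 week against sham at 6 h they were at -0.049 and -0.064. Of the core subunits at 6 h, Ndufs1, the large iron-sulphur subunit, was at 35.4 CPM in irradiated and 45.4 CPM in sham, a log2 fold of -0.36 (-0.58 to -0.13). Ndufs3, a core subunit that carries no cluster, was at 94.2 CPM in irradiated and 116 CPM in sham, a log2 fold of -0.30 (-0.44 to -0.16). Against sham at 1 week they were at -0.19 and -0.24, so both lay below both sham libraries at 6 h. Ndufb11, a supernumerary subunit singled out after its values were seen, was the remaining complex I member past 1.2-fold downwards, at -0.28.

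Ndufb6, a supernumerary subunit of the membrane arm (ENSMUSG00000071014, mm10 chromosome 4, 40270591 to 40279421), was at 109 CPM in irradiated and 64.6 CPM in sham at 6 h, and at 70.3 CPM in irradiated and 64.3 CPM in sham at 1 week. Irradiated at 6 h stood alone, while the other 3 libraries lay within 64.3 and 70.3 CPM. Its log2 fold was 0.75 (0.60 to 0.91) at 6 h, 0.76 against sham at 1 week, and 0.13 (-0.064 to 0.32) at 1 week. It rested on 807 UMIs in irradiated and 631 in sham at 6 h, and over every other cell selection and scaling with the same sham it ran from 0.74 to 0.81. The gene overlaps the opposite-strand gene Smim27 by 350 bases, and without stated strand handling reads there cannot be told apart. Smim27 was at 43.5 CPM in irradiated and 49.2 CPM in sham at 6 h, the lower value in the irradiated library.

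Ndufab1, the mitochondrial acyl carrier protein that is also a complex I subunit, was at 149 CPM in irradiated and 121 CPM in sham at 6 h, and at 118 CPM in irradiated and 112 CPM in sham at 1 week. Its log2 fold was 0.31 (0.19 to 0.43) at 6 h and 0.41 against sham at 1 week, but 0.072 (-0.075 to 0.22) at 1 week. Irradiated at 6 h was again the highest library. Ndufa12, a supernumerary subunit of the peripheral arm, was at 136 CPM in irradiated and 112 CPM in sham at 6 h, and at 116 CPM in irradiated and 88.7 CPM in sham at 1 week. It was above its own sham at both times, by 0.27 (0.15 to 0.40) and 0.38 (0.22 to 0.54), yet irradiated at 1 week was only 0.040 above sham at 6 h. Of the other named complex I subunits at 1 week, Ndufa8 was at 0.21 (0.057 to 0.36) and Ndufb7 at 0.21 (0.066 to 0.35), both subunits of the intermembrane space side, and Ndufb3 was lowest at -0.12 (-0.28 to 0.038). For irradiated at 1 week against sham at 6 h, Ndufa8 was at 0.041, Ndufb7 at -0.024 and Ndufb3 at -0.077.

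The 8 nuclear complex III subunits taken by the symbol rule spanned a narrow range. It ran from -0.16 for Uqcrc2 to 0.032 for Uqcrq at 6 h and from -0.081 for Uqcrc2 to 0.18 for Uqcrfs1 at 1 week. Uqcrc2 is a core subunit, Uqcrq a small subunit that binds ubiquinone, and Uqcrfs1 the Rieske iron-sulphur subunit. None passed 1.2-fold. Their sum was at -0.049 (-0.086 to -0.012) at 6 h, where DESeq2 scaling gave 0.0030, and at 0.039 (-0.0040 to 0.082) at 1 week. Both values were close to the median over all genes measured, -0.061 at 6 h and 0.036 at 1 week. Against the sham of the other time the sum was 0.078 for irradiated at 6 h and -0.088 for irradiated at 1 week, again with the sign turned. Cyc1, a complex III subunit that the rule leaves out, is listed with the electron carriers below. It was at 0.063 (-0.068 to 0.19) at 6 h and -0.086 (-0.23 to 0.063) at 1 week.

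Nuclear complex IV subunits summed to 0.10 (0.078 to 0.13) at 6 h and 0.091 (0.062 to 0.12) at 1 week, with -0.14 between the sham libraries. Against the sham of the other time the sum was 0.24 for irradiated at 6 h, and it turned to -0.052 for irradiated at 1 week. Cox4i1, the regulatory subunit that binds ATP, gave much of the 6 h value. It was at 766 CPM in irradiated and 617 CPM in sham at 6 h, and at 578 CPM in irradiated and 530 CPM in sham at 1 week. Without it the other 18 complex IV genes summed to 0.045 (0.017 to 0.072) at 6 h and 0.084 at 1 week. The log2 fold of Cox4i1 was 0.31 (0.26 to 0.36) at 6 h and 0.53 against sham at 1 week. At 1 week it was 0.12 (0.057 to 0.19), and it turned to -0.094 against sham at 6 h. Its neighbour Emc8, which overlaps it by 352 bases on the opposite strand, was at 0.24 at 6 h.

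Cox6b2, known as the testis isoform of the subunit that joins complex IV dimers (ENSMUSG00000051811, mm10 chromosome 7, 4751792 to 4753094), had the largest fold of all members at 6 h. It had 98 UMIs in irradiated and 28 in sham at 6 h, and 28 in irradiated and 8 in sham at 1 week. These are 13.2 CPM in irradiated and 2.87 CPM in sham at 6 h, and 3.62 CPM in irradiated and 1.40 CPM in sham at 1 week, so irradiated at 6 h stood above the other libraries. The log2 fold was 2.21 (1.59 to 2.87) at 6 h and 3.24 against sham at 1 week. At 1 week it was 1.37 (0.20 to 2.71), from 36 UMIs and thus under the minimum. The 98 UMIs lay in 87 barcodes, and the 28 of sham in 27. Cox6b1, the widely expressed isoform, was at 302 CPM in irradiated and 280 CPM in sham at 6 h, and at 274 CPM in irradiated and 261 CPM in sham at 1 week, with log2 folds of 0.11 (0.026 to 0.19) and 0.072 (-0.024 to 0.17). Cox6b2 made up 4.20% of the UMIs of both isoforms in irradiated (exact interval 3.42 to 5.10%) and 1.01% in sham at 6 h (0.674 to 1.46%). At 1 week it made up 1.30% in irradiated (0.867 to 1.88%) and 0.534% in sham (0.231 to 1.05%).

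The other complex IV isoforms gave no such contrast. Cox6a2, the heart and skeletal muscle isoform, had 47 UMIs in irradiated and 50 in sham at 6 h, and 30 in irradiated and 31 in sham at 1 week, with log2 folds of 0.31 (-0.30 to 0.91) at 6 h and -0.49 (-1.26 to 0.29) at 1 week, both within counting error of 0. Its partner Cox6a1 was at -0.059 at 6 h and 0.18 (0.082 to 0.28) at 1 week, which became 0.14 and -0.022 against the sham of the other time. Cox4i2, the oxygen-responsive alternative to Cox4i1, had at most 4 UMIs in any library, and the muscle isoform Cox7a1 had at most 9. Cox7b2, Cox8b and Cox8c, isoforms of testis or muscle, had 0 UMIs in every library, which at 3 counts per library allows up to 0.405 CPM in irradiated and 0.307 CPM in sham at 6 h, and up to 0.388 CPM in irradiated and 0.526 CPM in sham at 1 week. Cox8a, the general partner of the last pair, was at 0.16 (0.093 to 0.23) at 6 h and 0.097 at 1 week. Cox7a2 was at -0.012 at 6 h and 0.12 at 1 week, which became 0.15 and -0.036 against the sham of the other time. Ndufa4 was at 258 CPM in both 6 h libraries and at 261 CPM in irradiated and 215 CPM in sham at 1 week, a log2 fold of 0.29 (0.18 to 0.39), and at 0.019 against sham at 6 h. Ndufa4l2, a hypoxia-induced relative, had 10 UMIs in sham at 6 h, all in 1 barcode, and at most 1 UMI in each other library.

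**Figure D4:**
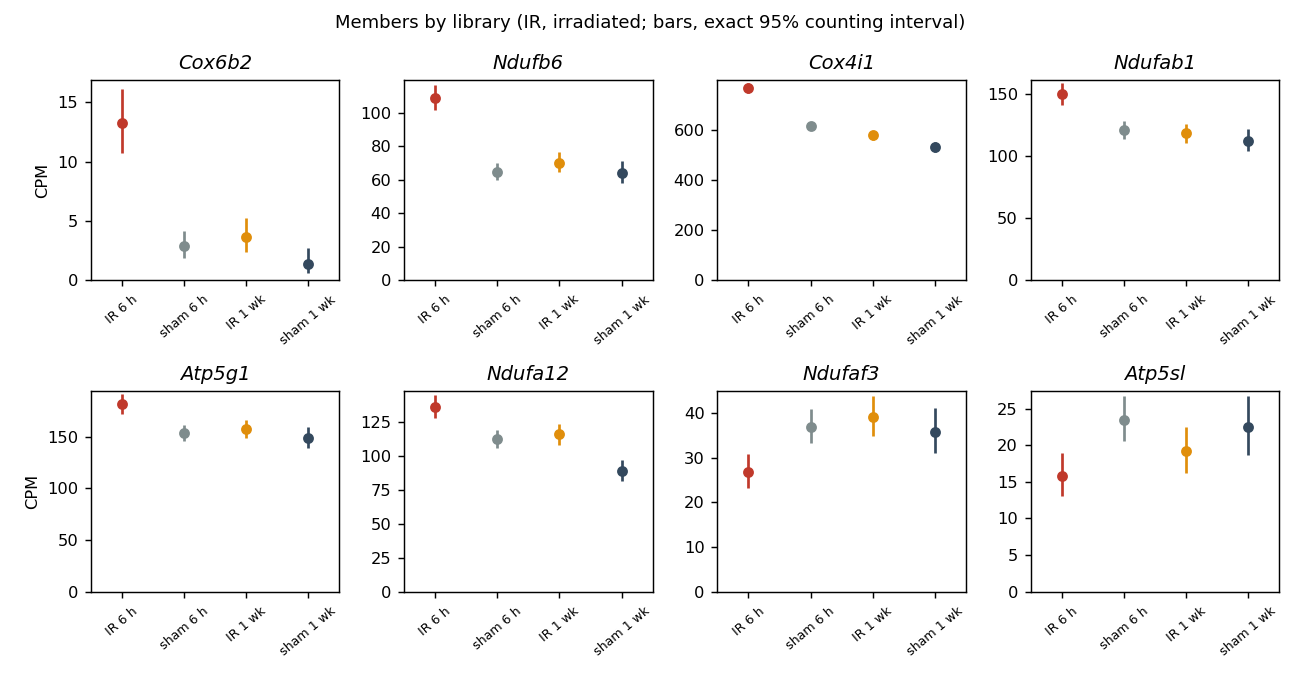
CPM (y axis, from 0) of 8 nuclear members in the 4 libraries (x axis; IR, irradiated), with exact 95% counting intervals. Cox6b2, Ndufb6, Cox4i1, Ndufab1, Atp5g1 and Ndufa12 are highest in irradiated microglia at 6 h, and the assembly factors Ndufaf3 and Atp5sl are lowest there.

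Complex V was near sham as a group. Its 15 nuclear members summed to -0.038 (-0.062 to -0.015) at 6 h, where DESeq2 scaling gave 0.014, and to 0.019 (-0.0084 to 0.046) at 1 week, where it gave -0.0070. The median over all genes measured was -0.061 at 6 h and 0.036 at 1 week. Against the sham of the other time the sum was 0.011 for irradiated at 6 h and -0.030 for irradiated at 1 week. Atp5c1, the central stalk subunit, was the only one past 1.2-fold at 6 h, at -0.28, and is named after its value was seen. The isoform mix of the c-ring subunit differed between libraries. Atp5g1, Atp5g2 and Atp5g3 code for the same mature ring subunit with different import signals. Atp5g1 was at 181 CPM in irradiated and 154 CPM in sham at 6 h, and at 157 CPM in irradiated and 149 CPM in sham at 1 week, so irradiated at 6 h was highest. Its log2 fold was 0.24 (0.13 to 0.35) at 6 h and 0.078 at 1 week. Atp5g1 made up 36.3% of the UMIs of the trio in irradiated (34.7 to 37.8%) and 31.0% in sham at 6 h (29.7 to 32.4%), and 30.9% in irradiated and 27.8% in sham at 1 week. Atp5g2 took 49.4% in irradiated and 54.1% in sham at 6 h, and 54.1% in irradiated and 57.8% in sham at 1 week, while Atp5g3 stayed between 14.4% and 15.0% in every library. Atp5g2 itself was at -0.12 (-0.21 to -0.031) at 6 h and -0.17 (-0.26 to -0.075) at 1 week. Against the sham of the other time it was at -0.32 for irradiated at 6 h and turned to 0.035 for irradiated at 1 week. The isoform mix of irradiated at 1 week was likewise close to that of sham at 6 h. The Atp5g genes are closely related, and how reads that match several of them were counted is not given in the sources used here.

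The 10 assembly and accessory factors, which build the complexes without being part of the final enzyme in most cases, summed to -0.086 (-0.14 to -0.028) at 6 h and 0.062 (-0.0029 to 0.13) at 1 week. At 6 h, 4 of 10 were at least 1.2-fold lower and 0 higher, against 28.0% and 20.1% of all genes, and at 1 week 0 were lower and 1 was higher, against 14.0% and 16.4%. With 10 members these counts are not far from the background. Atp5sl, whose protein is a factor for the distal membrane arm of complex I despite its symbol, was at 15.8 CPM in irradiated and 23.5 CPM in sham at 6 h, and at 19.1 CPM in irradiated and 22.4 CPM in sham at 1 week. Its log2 fold was -0.57 (-0.90 to -0.24) at 6 h, -0.50 against sham at 1 week, and -0.23 (-0.58 to 0.12) at 1 week. After thinning it was -0.89 at 6 h, past 1.5-fold, and 0.097 at 1 week. Ndufaf3, an early complex I assembly factor, was at 26.8 CPM in irradiated and 36.9 CPM in sham at 6 h, and at 39.2 CPM in irradiated and 35.7 CPM in sham at 1 week. It was at -0.46 (-0.72 to -0.21) at 6 h and 0.13 (-0.13 to 0.40) at 1 week. Both factors were lowest in irradiated at 6 h. Ndufaf3 overlaps Impdh2 on the opposite strand by 48 bases, and Impdh2 was at 0.15 at 6 h.

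Ndufaf7, a complex I assembly factor, was at -0.33 (-0.53 to -0.13) at 6 h and 0.21 (-0.012 to 0.43) at 1 week, and Ndufaf6 was at -0.39 (-0.90 to 0.11) at 6 h, where thinning gave -0.11, and 0.11 at 1 week. Ndufaf4, the partner of Ndufaf3 in assembly, was at 49.5 CPM in irradiated and 47.3 CPM in sham at 6 h, and at 46.6 CPM in irradiated and 34.5 CPM in sham at 1 week. Sham at 1 week was the low library, so the log2 fold of 0.43 (0.18 to 0.69) at 1 week became -0.024 against sham at 6 h. Ndufaf2 and Ndufaf5, a chaperone related to Ndufa12 and a hydroxylase of Ndufs7, were at -0.24 (-0.54 to 0.069) and -0.19 (-0.81 to 0.43) at 1 week. Cox7a2l, which joins complexes III and IV into supercomplexes, was at -0.012 (-0.085 to 0.062) at 6 h and 0.036 (-0.046 to 0.12) at 1 week.

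Per cell, the mitochondrial share had a median of 1.10% in irradiated and 1.11% in sham at 6 h, and of 1.205% in irradiated and 1.29% in sham at 1 week. The middle of the distribution was therefore alike at 6 h, although the library sums differed. The upper tail was not alike, with a 95th percentile of 2.57% in irradiated and 2.20% in sham at 6 h, and of 2.42% in irradiated and 2.73% in sham at 1 week. Cells above 5% numbered 20 of 2023 in irradiated (0.989%, exact interval 0.605 to 1.52%) and 6 of 2670 in sham at 6 h (0.225%, 0.0825 to 0.488%). At 1 week they numbered 9 in irradiated (0.415%) and 14 in sham (0.863%). Of these cells, 17 in irradiated and 5 in sham at 6 h, and 8 in irradiated and 13 in sham at 1 week, had fewer than 2000 UMIs. Thinning to 2000 UMIs left out 127 cells in irradiated and 110 in sham at 6 h, and 130 in irradiated and 230 in sham at 1 week. It left 4 cells above 5% in irradiated at 6 h and 1 in each other library. The cells above 5% were therefore mostly shallow barcodes. Barcodes under 2000 UMIs had a median mitochondrial share of 1.68% in irradiated and 1.46% in sham at 6 h, and of 1.21% in irradiated and 1.11% in sham at 1 week. In deeper barcodes it was 1.08% in irradiated and 1.10% in sham at 6 h, and 1.205% in irradiated and 1.31% in sham at 1 week. Shallow barcodes thus had the higher median at 6 h, nearly the same median in irradiated at 1 week and the lower median in sham at 1 week.

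The nuclear share per cell had a median of 1.26% in irradiated and 1.27% in sham at 6 h, and of 1.22% in irradiated and 1.19% in sham at 1 week. Within a library the mitochondrial and nuclear shares of a cell were only weakly related, with Spearman correlations over all its cells between 0.10 in irradiated at 1 week and 0.17 in sham at 6 h, and between 0.089 and 0.16 after thinning. Both shares have the same cell total below them, and the values are given as a description.

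**Figure D5:**
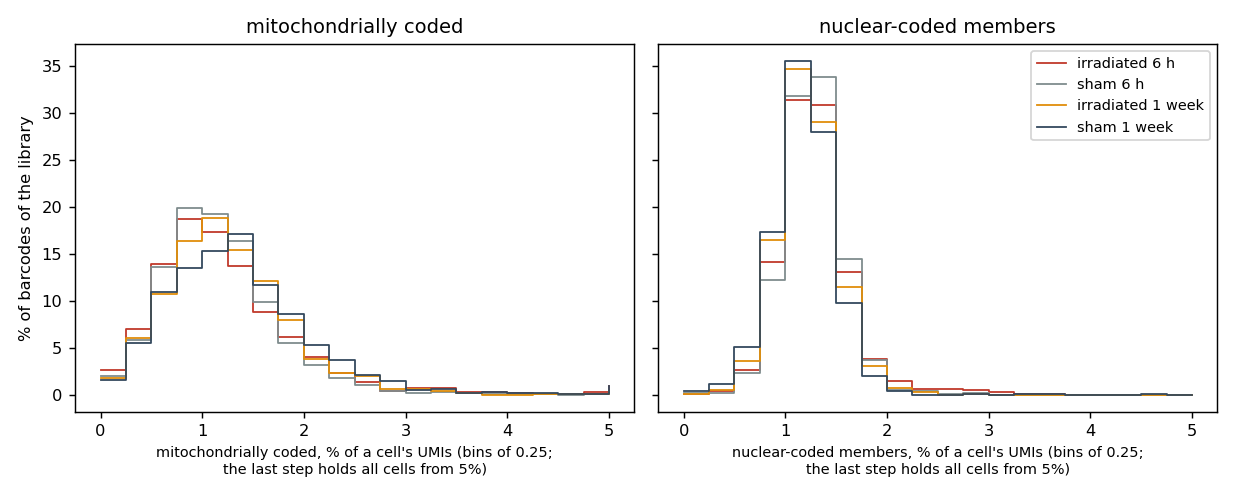
Share of barcodes of each library (y axis, %) by the share of a cell's UMIs that came from mitochondrially coded genes (left) or nuclear-coded members (right; x axis, %, bins of 0.25 with all higher values in the last). The libraries overlap almost fully, and sham at 1 week extends farthest to the right between 1.25% and 3% in the mitochondrial plot.

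Genes around the chain were taken from lists of related mitochondrial functions, again called at 1.2-fold against the background of 20.1% higher and 28.0% lower at 6 h and of 16.4% and 14.0% at 1 week. Complex II, the succinate dehydrogenase coded by the nucleus alone, had 0 of 4 genes past the fold at either time and a sum of -0.17 (-0.23 to -0.098) at 6 h and -0.031 (-0.11 to 0.044) at 1 week. Sdhd, a membrane anchor, was its lowest gene at 6 h, at -0.24 (-0.40 to -0.083). The TCA cycle, which supplies NADH and succinate to the chain, had 0 of 18 higher and 5 lower at 6 h, and 2 higher and 0 lower at 1 week. Its share that was lower at 6 h was near the background of 28.0%. Its lowest gene, the NADP-dependent isocitrate dehydrogenase gene Idh2, was at 124 CPM in irradiated and 188 CPM in sham at 6 h, a log2 fold of -0.60 (-0.71 to -0.48), and at -0.49 against sham at 1 week. Fumarase gene Fh1 was at -0.52 (-0.77 to -0.27) and citrate synthase gene Cs at -0.49 (-0.78 to -0.20).

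Mitochondrial import brings nuclear-coded subunits into the organelle. Its list had 7 of 19 genes higher and 0 lower at 6 h, with a sum of 0.23 (0.19 to 0.26). Hspd1, a matrix chaperonin gene, was at 159 CPM in irradiated and 106 CPM in sham, a log2 fold of 0.59 (0.47 to 0.71), and at 0.92 against sham at 1 week. Tomm20, an import receptor gene of the outer membrane, was at 274 CPM in irradiated and 189 CPM in sham, a log2 fold of 0.54 (0.44 to 0.63), and at 0.52 against sham at 1 week. At 1 week the list had 0 of 18 higher and 1 lower, with a sum of 0.0092 (-0.032 to 0.051). Mitophagy and dynamics had 1 of 15 higher and 6 lower at 6 h, led by the kinase gene Pink1, which marks damaged mitochondria, at -0.66 (-0.87 to -0.45). At 1 week it had 0 higher and 1 lower.

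The electron carrier Cycs, the cytochrome c that links complexes III and IV and also takes part in apoptosis, was at 144 CPM in irradiated and 114 CPM in sham at 6 h, a log2 fold of 0.34 (0.22 to 0.47), and at 0.074 at 1 week. Its list had 2 of 7 higher and 1 lower at 6 h and 0 past the fold at 1 week. Assembly genes of complexes III to V had 3 of 27 higher and 2 lower at 6 h, and 4 higher and 3 lower at 1 week. Among them Sco2, a copper chaperone of complex IV and a known p53 target, was at 68.9 CPM in irradiated and 36.4 CPM in sham at 6 h, a log2 fold of 0.92 (0.72 to 1.12), at 1.01 against sham at 1 week, and at 0.16 (-0.10 to 0.43) at 1 week. It was thus highest in irradiated at 6 h, and whether p53 had a part in this was not tested. Its relative Sco1 was at 0.84 (0.19 to 1.53) at 1 week from 68 UMIs in irradiated and 28 in sham, and at 0.25 (-0.25 to 0.75) against sham at 6 h.

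The nuclear regulators of respiratory genes had 2 of 10 higher and 1 lower at 6 h, and 0 higher and 2 lower at 1 week. Nrf1, whose motif is described above, was at -0.18 (-0.46 to 0.089) and Gabpa at -0.18 (-0.54 to 0.18) at 6 h, both within counting error of 0. Hif1a, the hypoxia-responsive factor that favours glycolysis, was at 99.3 CPM in irradiated and 52.7 CPM in sham at 6 h, a log2 fold of 0.92 (0.75 to 1.08), and at -0.21 (-0.45 to 0.019) at 1 week. Genes for mitochondrial DNA replication and transcription had 2 of 13 higher and 3 lower at 6 h, and 1 higher and 7 lower at 1 week. Their sums were -0.0050 (-0.086 to 0.075) at 6 h and -0.028 (-0.12 to 0.063) at 1 week. Against sham at 6 h, irradiated at 1 week had 1 higher and 3 lower, where 1373 and 1743 of 9925 genes passed. The gene of this list farthest from sham at 6 h was Top1mt, at 1.10 (0.59 to 1.62), from 86 UMIs in irradiated and 53 in sham. At 1 week it was Mterf1a, at 1.02 (0.31 to 1.77), from 63 UMIs in irradiated and 23 in sham. Tfam, which packages mitochondrial DNA and starts its transcription, was at 0.019 (-0.25 to 0.28) at 6 h and -0.34 (-0.62 to -0.060) at 1 week. It was at 28.7 CPM in irradiated and 28.3 CPM in sham at 6 h. At 1 week it was at 28.2 CPM in irradiated and 35.7 CPM in sham, so sham at 1 week was the high library. Genes for mitochondrial RNA processing had 4 of 16 higher and 3 lower at 6 h, and 1 higher and 2 lower at 1 week. The mitochondrial ribosome, which translates the 13 mitochondrial messages, had 8 of 76 higher and 8 lower at 6 h, and 11 higher and 3 lower at 1 week, with sums of 0.0018 (-0.021 to 0.024) and 0.074 (0.049 to 0.10). Mitochondrial antioxidant genes had 1 of 8 higher and 2 lower at 6 h and 0 past the fold at 1 week, and 0 of 3 complex V subunits listed under other symbols passed it at either time.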

How the data were processed

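Microglia of 4 groups, 1 library each, were measured. Per the labels the libraries were made with 10x Genomics Chromium. The deposited files hold raw UMI counts per gene and barcode, made by the authors with Cell Ranger 2.0 on mm10, per the submitters' processing notes; the sources used here do not give barcode calling, annotation release or strand handling. No columns of other samples were present.

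All deposited barcodes were used, no doublet caller was run, and counts were summed per library and scaled to CPM. Total counts ranged from 5706955 to 9760928 UMIs. Log2 folds carry the exact conditional binomial 95% interval and shares the Clopper-Pearson 95% interval, both for counting error only. With 1 library per group there is no p-value. Members with at least 50 UMIs in the pair of libraries compared counted as measured, called at 1.2-fold or 1.5-fold. Named were all mitochondrially coded members, the 6 highest and 6 lowest nuclear members of each irradiated-over-sham comparison, and isoform families. The members and gene lists were chosen with earlier results of these data known.

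Gene coordinates came from GENCODE vM21, matched by identifier for all 101 members. Of the nuclear members, 28 overlapped another gene of the files, 4 of them on the same strand. Promoters came from RefSeq (GRCm38.p6). Alternatives changed the cell filter, microglia selection, dividing cells, total, scaling (TMM of edgeR 4.0.16, size factors of DESeq2 1.42.0), averaging, thinning to 2000 UMIs and sham library. Marker-selected barcodes passed 1000 UMIs and 500 genes with at most 10% mitochondrial UMIs, held at least 3 of the 9 microglia markers, and had a UMI of at most 1 neural, oligodendroglial or vascular marker; they numbered 1732 in irradiated and 2383 in sham at 6 h, and 1923 in irradiated and 1421 in sham at 1 week. The calculation was tested on simulated counts. Python 3.11.15 with scipy 1.17.1 and R 4.3.3 were used.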

Additional observations from a re-analysis of the deposited data

Results flagged for a closer look

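Summed mitochondrially coded UMIs and 7 single genes were above their own sham at 6 h and below it at 1 week, with both counting intervals away from 0. The 1 week log2 fold minus the 6 h log2 fold was -0.21 for the sum. It was -0.66 for mt-Nd2, -0.63 for mt-Nd3, -0.55 for mt-Nd5, -0.43 for mt-Nd1, -0.27 for mt-Atp6, -0.22 for mt-Co2 and -0.21 for mt-Nd4. These differences were not tested, since each group is 1 library. The sham libraries differed by 0.25 for the sum, 0.78 for mt-Nd2 and 0.77 for mt-Nd3, with sham at 1 week the higher library.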

How the results depend on the processing

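With the sham library of the same time, the summed mitochondrial fold kept its direction at both times. At 6 h, against 0.077 over all barcodes, it was 0.060 in barcodes from 1000 UMIs and 500 genes with or without the mitochondrial limit, 0.036 in marker-selected microglia, 0.10 with TMM, 0.13 with DESeq2 factors, 0.12 as a mean over cells and 0.040 after thinning. At 1 week, against -0.13, it was -0.16 with DESeq2 factors and -0.15 as a mean over cells. The other sham library, whose mice also differed in age, turned it to -0.17 at 6 h and 0.12 at 1 week. The summed nuclear fold at 6 h, -0.010, was 0.017 with TMM, 0.042 with DESeq2 factors, 0.011 as a mean over cells and 0.089 against the other sham. At 1 week, 0.051, it was 0.025 with DESeq2 factors, 0.032 after thinning and -0.049 against the other sham. Nuclear members past 1.2-fold numbered 4 at 1 week and 9 after thinning, where fewer UMIs remain. Against the other sham, 22 of 38 named members measured at 1 week and 13 of 40 at 6 h had the opposite sign, of which 13 at 1 week and 7 at 6 h had an interval away from 0 against their own sham. Those at least 1.2-fold from their own sham among them were, at 1 week, mt-Atp8 to -0.58, mt-Nd1 to 0.24, mt-Nd2 to 0.25, mt-Nd3 to 0.39 and Ndufaf4 to -0.024. Thinning gave Atp5sl -0.89 at 6 h and 0.097 at 1 week, and Ndufaf6 -0.11 at 6 h. The cause was not tested. Leaving out the barcodes that libraries share, an alternative chosen after seeing the data, moved no result past its interval. No paired analysis was possible because each group is 1 library. Depth limits members under 50 UMIs, such as Cox6b2 and mt-Nd6 at 1 week.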
